A study of Mus musculus with 2 samples.

Results

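Of the 2202 microRNA genes counted in male mouse hippocampus, the 6 described here are Mirlet7g, Mirlet7b, Mirlet7i, Mirlet7d, Mirlet7e and Mir98, let-7 genes whose hairpins share no stretch of 20 bases with another annotated microRNA gene. They were chosen by name, and their Ensembl identifiers were matched to symbols through GENCODE M21. Small RNA was sequenced from total RNA of tissue labelled as a layer of the hippocampus, taken at 36 days of age from the F1 cross B6CASTF1/J, which carries 1 set of chromosomes from C57BL/6J and 1 from CAST/EiJ. There is 1 group with 2 libraries, labelled biological replicate 2 and biological replicate 1, and no treatment or second genotype. The tissue samples were separate and their names end in different numbers, but they carry a shared donor label, so the spread between the libraries need not be a spread between animals.

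The let-7 family is an ancient group of microRNAs, found first in the worm Caenorhabditis elegans as a gene that times the passage from larva to adult. A hairpin precursor is cut by Drosha and Dicer, and the 5p strand is loaded into an Argonaute protein, where its seed pairs with target messenger RNAs and lowers their output. In vertebrates the RNA-binding protein LIN28 blocks the processing of let-7 precursors in stem cells and embryonic tissue, and mature let-7 accumulates as neural progenitors leave the cell cycle. Known targets include Hmga2, Lin28a, Lin28b and Ras genes.

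The mature 5p sequences are shown because they set both the shared targets and the positions that tell the members apart. They are RefSeq sequences on GRCm38.p6, the assembly also called mm10, written 5′ to 3′, with the seed (bases 2 to 8) in capitals.
let-7g-5p: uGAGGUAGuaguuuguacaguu
let-7b-5p: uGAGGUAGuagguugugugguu
let-7i-5p: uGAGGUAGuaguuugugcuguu
let-7d-5p: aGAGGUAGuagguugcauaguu
let-7e-5p: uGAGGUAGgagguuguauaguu
miR-98-5p: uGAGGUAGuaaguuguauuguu
The 6 share the seed, and 14 of their 22 positions hold the same base throughout. For comparison, the let-7 sequences made by the duplicated genes are these.
let-7a-5p: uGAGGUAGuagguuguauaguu
let-7c-5p: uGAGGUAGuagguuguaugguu
let-7f-5p: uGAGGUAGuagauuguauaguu

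Against let-7a-5p, with positions counted from 1 at the 5′ end, let-7e-5p differs by U9G alone. let-7d-5p differs by U1A and U16C, and it is the one member that does not begin with U. let-7b-5p carries A17G and A19G, let-7g-5p G12U and U18C, and miR-98-5p G11A and A19U. let-7i-5p is the farthest, with G12U, A17G, U18C and A19U. Between members, over the 15 pairs, the number of differences ran between 2 (let-7g-5p and let-7i-5p) and 6 (let-7i-5p and let-7d-5p), with a median of 4. In the sequence table, 13 genes have a mature sequence with the let-7 seed, and all 13 are in the files. Mirlet7a-2 is not among the 13, because only its 3p strand is listed there, so 13 is not a count of the whole family.

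The label of unique hairpins was checked against the annotated microRNA genes. The longest exact stretch shared with another gene was 19 bases for Mirlet7g and Mirlet7i, which share it with each other, and 19 bases for Mirlet7b, shared with Mirlet7c-2. It was 17 bases for Mirlet7e and Mir98 and 14 bases for Mirlet7d. By contrast Mirlet7a-1 and Mirlet7c-2 share 26 bases, and Mirlet7f-1 and Mirlet7f-2 share 22. No full mature sequence of a member, 5p or 3p, was found in another annotated microRNA gene, and the remaining exact matches in GENCODE M21 transcripts of other genes lay in the host transcripts of Mirlet7b, Mirlet7i and Mirlet7d. A read that begins at the 5′ end of let-7g-5p, let-7b-5p, let-7i-5p or let-7e-5p has to reach base 17 to fall in no other annotated hairpin. For miR-98-5p base 11 is enough, and for let-7d-5p base 9. With 1 mismatch allowed, let-7b-5p also fits Mirlet7c-1 and Mirlet7c-2, let-7e-5p fits Mirlet7a-1 and Mirlet7a-2, and let-7i-5p fits Mir7j. How many mismatches the alignment allowed is unknown here, and sequence outside annotated transcripts was not searched for copies.

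Each member lies inside a longer gene on its own strand (coordinates on mm10). Mirlet7g (ENSMUSG00000065440.1, chr9:106178840-106178927, plus strand) is in an intron of Wdr82, Mirlet7e (ENSMUSG00000105758.1, chr17:17830352-17830444, plus strand) in an intron of Spaca6, and Mir98 (ENSMUSG00000065536.2, chrX:151913214-151913321, plus strand) in an intron of the ubiquitin ligase gene Huwe1. The other 3 overlap exons of noncoding genes. Mirlet7b (ENSMUSG00000065564.1, chr15:85707319-85707403, plus strand) overlaps an exon of Lncppara, Mirlet7d (ENSMUSG00000065453.1, chr13:48536012-48536114, minus strand) an exon of the lincRNA 6720427I07Rik, and Mirlet7i (ENSMUSG00000065406.3, chr10:122985640-122985724, minus strand) an exon of the transcribed pseudogene D630033A02Rik. The hairpins are 85 to 108 bases long, and all 12 mature strands are 22 bases, so counts of the members are also counts per equal length. The hairpins of the highest member and of the pair that changed places in order are shown with both mature strands in capitals, since a count covers the 5p and the 3p strand together.
Mirlet7g: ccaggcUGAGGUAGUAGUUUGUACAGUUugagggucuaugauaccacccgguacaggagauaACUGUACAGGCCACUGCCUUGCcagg
Mirlet7d: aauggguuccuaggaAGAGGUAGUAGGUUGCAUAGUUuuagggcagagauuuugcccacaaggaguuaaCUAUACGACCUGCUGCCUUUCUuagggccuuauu
Mirlet7e: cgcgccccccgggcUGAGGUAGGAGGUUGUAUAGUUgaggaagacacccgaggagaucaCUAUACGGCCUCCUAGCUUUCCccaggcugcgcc

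The own-strand total over all microRNA genes was 5279877 in replicate 2 and 4404040 in replicate 1. Multimapping reads, which enter no gene, were 46.5% of all reads in replicate 2 and 40.3% in replicate 1. Of the 10 neuronal marker genes 7 reached 10 counts in each library, and the 10 summed to 48768 CPM (counts per 1000000 own-strand counts) in replicate 2 and 41837 CPM in replicate 1. The defining neuronal gene group miR-124 was at or near 0 (Mir124a-3 at 0, Mir124a-2 at 1 and 1 counts, Mir124a-1 at 8 and 11 counts in replicates 2 and 1), for which the cause was not tested. The liver marker Mir122 stood at 27.7 and 30.2 CPM. Of the 6 muscle markers 3 were at 0 in both, and 1 reached 10 counts in each library. That was Mir206, at 107 CPM in replicate 2 and 98.1 CPM in replicate 1. Since multimapping reads enter no gene, a count of 0 need not mean that the RNA was absent.

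The 6 genes together took 25.8% of own-strand counts in replicate 2 (Wilson 95% interval, 25.78 to 25.86), against 34.6% in replicate 1 (34.55 to 34.64), a mean of 30.2% ± 6.20 (SD, n = 2). Intervals cover the counting error of reads only. Reads counted without molecular identifiers can be copies of 1 molecule, so the error over molecules can be larger. The members made up 97.7% of all let-7 counts in replicate 2 and 97.8% in replicate 1. Reads that map to several places enter no gene, so this is a share of counted reads and not of let-7 RNA in the tissue.

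Ranks are over own-strand counts, and reads that map to several places enter no gene. A microRNA made by several genes can therefore rank below its level in the tissue. By these counts Mirlet7g was the highest microRNA gene in both libraries. It had 500603 counts in replicate 2 and 501087 in replicate 1, or 94813 and 113779 CPM (mean 104296 ± 13411, SD, n = 2). Mirlet7b, a member studied in mouse neural stem cells, where it holds back proliferation, had 362132 and 372663 counts, or 68587 and 84618 CPM, and held rank 3 in both libraries. Mirlet7i had 292676 counts in replicate 2 and 329221 in replicate 1, or 55432 and 74754 CPM, which ranked it 6 and 4. Each of these 3 genes was above the other 3 members in both libraries.

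Mirlet7d had 84309 counts in replicate 2 and 181432 in replicate 1, or 15968 and 41197 CPM, ranks 13 and 6. Mirlet7e had 92811 and 107658 counts, or 17578 and 24445 CPM, ranks 11 and 9. The lowest member, Mir98, which carries the let-7 seed under another name, had 30805 counts in replicate 2 and 31323 in replicate 1, or 5834 and 7112 CPM, ranks 38 and 28. The count of Mirlet7g was 16.3 times that of Mir98 in replicate 2 (exact 95% interval, 16.1 to 16.4) and 16.0 times in replicate 1 (15.8 to 16.2).

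**Figure D1:**
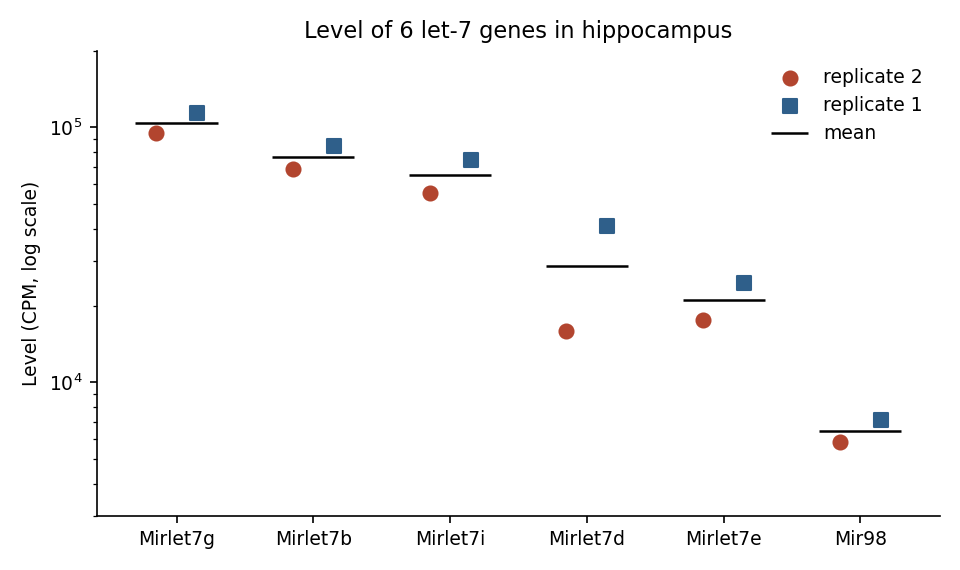
Level of each member in CPM on a log scale, with replicate 2 as circles, replicate 1 as squares and the mean as a line. The circles lie below the squares for all 6 genes, and the gap is widest for Mirlet7d, at 15968 CPM in replicate 2 and 41197 CPM in replicate 1.

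By mean CPM the order was Mirlet7g, Mirlet7b, Mirlet7i, Mirlet7d, Mirlet7e and Mir98. The ranges of neighbouring genes did not overlap between Mirlet7g and Mirlet7b, between Mirlet7i and Mirlet7d, or between Mirlet7e and Mir98. They overlapped for Mirlet7b and Mirlet7i, although within each library Mirlet7b was the higher, by 1.24 times in replicate 2 (1.23 to 1.24) and 1.13 times in replicate 1 (1.127 to 1.137). Mirlet7d and Mirlet7e overlapped and changed places: Mirlet7d had 0.908 times the counts of Mirlet7e in replicate 2 (0.90 to 0.92) and 1.69 times in replicate 1 (1.67 to 1.70). An exact two-sided test that flips signs over 2 libraries cannot go below p = 0.5, so no order was tested across libraries. How evenly different small RNAs were captured was not measured, so ratios between genes are ratios of counts.

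The make-up of the 6 genes was otherwise similar in the libraries. Mirlet7g gave 36.7% of the 6-gene sum in replicate 2 and 32.9% in replicate 1, and Mirlet7b 26.6% and 24.5%. Mirlet7i gave 21.5% and 21.6%, Mirlet7e 6.81% and 7.07%, and Mir98 2.26% and 2.06%. Mirlet7d gave 6.18% in replicate 2 (6.14 to 6.22) against 11.9% in replicate 1 (11.86 to 11.96).

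**Figure D2:**
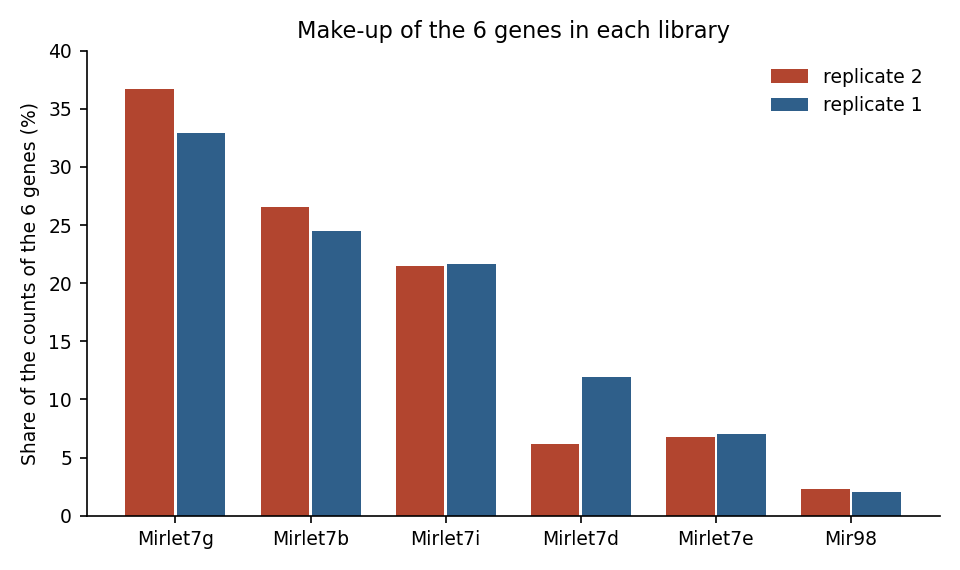
Share of the summed counts of the 6 genes taken by each, in percent, with replicate 2 as the left bar and replicate 1 as the right bar of each pair. Mirlet7d has the most unequal pair, at 6.18% in replicate 2 and 11.9% in replicate 1, and each of the other genes differs by under 4 percentage points.

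All 6 genes were lower in replicate 2 than in replicate 1 beyond the counting error of reads. After TMM scaling the log2 ratio of replicate 2 over replicate 1, with 1 CPM added to each, was -0.28 for Mirlet7g (95% exact interval -0.29 to -0.27), -0.32 for Mirlet7b, -0.45 for Mirlet7i, -0.49 for Mirlet7e and -0.30 for Mir98. It was -1.38 for Mirlet7d (-1.40 to -1.37), a level 0.383 times that of replicate 1. With an exact binomial test on the counts of both libraries, adjusted by Benjamini-Hochberg over the 504 genes whose counts summed to 10 or more, the adjusted p was 5.79e-150 for Mir98 and was computed as 0, below the smallest number held, for the other 5. The same test called 55.8% of all tested genes, 32.5% as higher and 23.2% as lower in replicate 2, so a call in it is common. All 6 members are among the 313 genes with 100 or more counts in total. With TMM scaling estimated anew over these 313, 122 were higher and 130 lower. That scaling also shifted the ratios, that of Mirlet7g from -0.28 to -0.41, so the 2 splits are not on 1 scale. With the scaling over all 504 genes, the median log2 ratio was -0.38 over the 6 genes and 0.05 over the 504. The test compares these 2 libraries and not a condition.

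**Figure D3:**
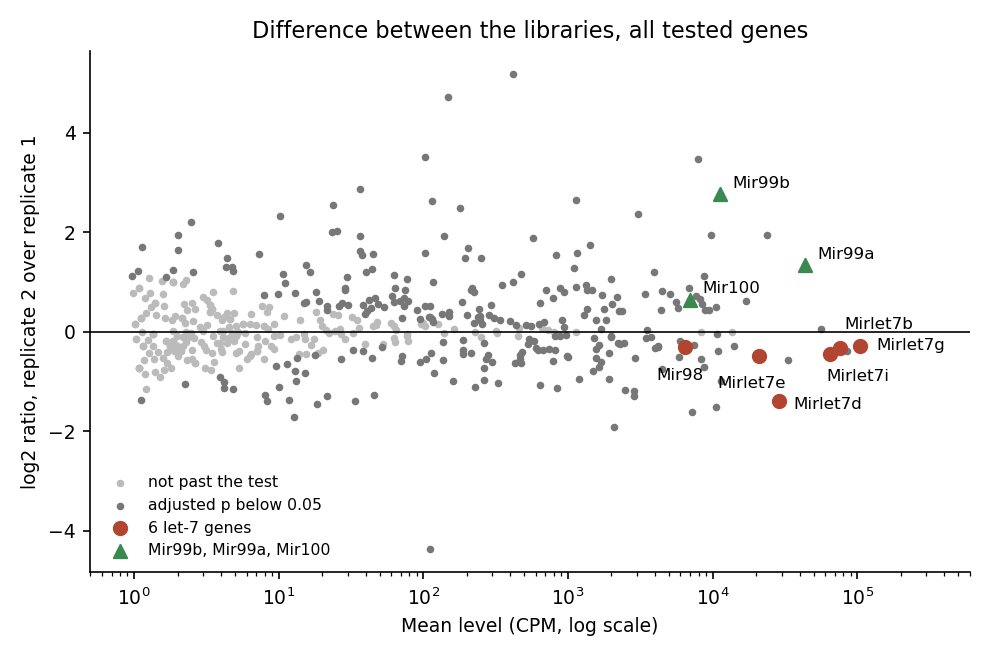
Log2 ratio of replicate 2 over replicate 1 against mean level in CPM (log scale) for the 504 tested genes, with genes past the test in dark grey and the others in light grey. The 6 let-7 genes (red circles) lie between -1.38 and -0.28, below the line at 0, while Mir99b, Mir99a and Mir100 (green triangles) lie at 2.77, 1.34 and 0.65.

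These differences can be set against the spread over all genes. edgeR estimated a coefficient of variation of 0.430 between the libraries over all tested genes. When the test allowed a coefficient of variation of 0.1, Mirlet7d alone of the 6 remained past the threshold (adjusted p = 2.79e-10 in the beta-binomial test), where 30.2% of all tested genes were called, 19.4% as higher and 10.7% as lower. Mirlet7e was next at an adjusted p of 0.0501, and Mirlet7i at 0.0802. With 0.3 allowed, none of the 6 passed, Mirlet7d having an adjusted p of 0.308, and 2.78% of all tested genes were called, 2.58% as higher and 0.198% as lower.

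Markers of other cell types were also called between the libraries, by the test that called 55.8% of all tested genes, 32.5% as higher and 23.2% as lower. The 3 vessel wall genes summed to 43835 CPM in replicate 2 and 16250 CPM in replicate 1, with 2 higher, 1 lower and Mir126a, an endothelial microRNA, at a log2 ratio of 1.95. Microglia and leukocyte genes summed to 5414 and 3396 CPM, with 4 of 4 higher, and choroid plexus and ciliated epithelium genes to 1809 and 1332 CPM, with 6 of 7 higher and 1 lower. Red blood cell genes summed to 113 and 66.8 CPM, with 2 of 3 higher. Oligodendrocyte genes summed to 5649 CPM in replicate 2 and 5809 CPM in replicate 1, with 1 higher and 1 lower. Of the neuronal genes 6 were higher and 1 was lower. In bulk tissue, fewer cells of a type and less RNA per cell cannot be told apart, and the part of cell makeup in the let-7 ratios was not tested.

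Because the members take so large a share of the counts, their ratios also depend on the total they are set against. Scaled to the total of all microRNA genes outside the let-7 family, the log2 ratio was -0.45 for Mirlet7g, -0.49 for Mirlet7b and -1.55 for Mirlet7d, while the median of all tested genes moved to -0.10. Mirlet7i stood at -0.62, Mirlet7e at -0.66 and Mir98 at -0.47 on that scale.

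For 4 members a neighbouring microRNA gene in the same cluster gives a comparison within 1 library. In the Mir98 cluster, where Mirlet7f-2 lies 785 bases away, Mir98 had 1.63 times the counts of Mirlet7f-2 in replicate 2 (95% exact interval 1.60 to 1.66) and 1.61 times in replicate 1 (1.58 to 1.64). Mirlet7b had 45.6 times the counts of Mirlet7c-2, 621 bases away, in replicate 2 (44.6 to 46.6) and 47.3 times in replicate 1 (46.2 to 48.3). In both clusters the intervals of the 2 libraries overlapped. Mirlet7f-2 and Mirlet7c-2 each share 20 or more bases with other let-7 genes, so the size of these ratios is uncertain. With 1 mismatch let-7b-5p also fits Mirlet7c-2, so the agreement of their ratio between the libraries is uncertain too. Whether reads of Mirlet7b entered the count of Mirlet7c-2 was not tested.

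In the cluster of Mirlet7d the intervals of the libraries did not overlap. Mirlet7d had 66.9 times the counts of Mirlet7a-1 in replicate 2 (63.3 to 70.8) and 115 times in replicate 1 (109 to 121). Against Mirlet7f-1 it had 80.7 times the counts in replicate 2 (75.9 to 85.8) and 126 times in replicate 1 (120 to 133). All 3 genes were lower in replicate 2, with log2 ratios of -1.38 for Mirlet7d, -0.61 for Mirlet7a-1 and -0.73 for Mirlet7f-1. Mirlet7a-1 shares up to 26 bases and Mirlet7f-1 up to 22 bases with another let-7 gene, so their counts of 1045 to 1582 are uncertain as levels.

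The cluster of Mirlet7e gave the largest shift of the 6 ratios between a member and a partner. It holds Mir99b, 94 bases before Mirlet7e, and Mir125a, 367 bases after it, all on the plus strand of chromosome 17; miR-125a is a vertebrate relative of lin-4, the other developmental timing microRNA of the worm. Mir99b had 104050 counts in replicate 2 and 12527 in replicate 1, and Mir125a had 57345 and 34968. Mirlet7e therefore stood at 0.892 times Mir99b in replicate 2 (0.88 to 0.90) and at 8.59 times in replicate 1 (8.44 to 8.76). Its ratio to Mir125a was 1.62 in replicate 2 (1.60 to 1.64) and 3.08 in replicate 1 (3.04 to 3.12). Within this cluster Mirlet7e was lower in replicate 2 (log2 ratio -0.49), while Mir125a (0.43) and Mir99b (2.77) were higher. Neither Mir99b nor Mir125a shares a stretch of 18 bases with another annotated microRNA gene.

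**Figure D4:**
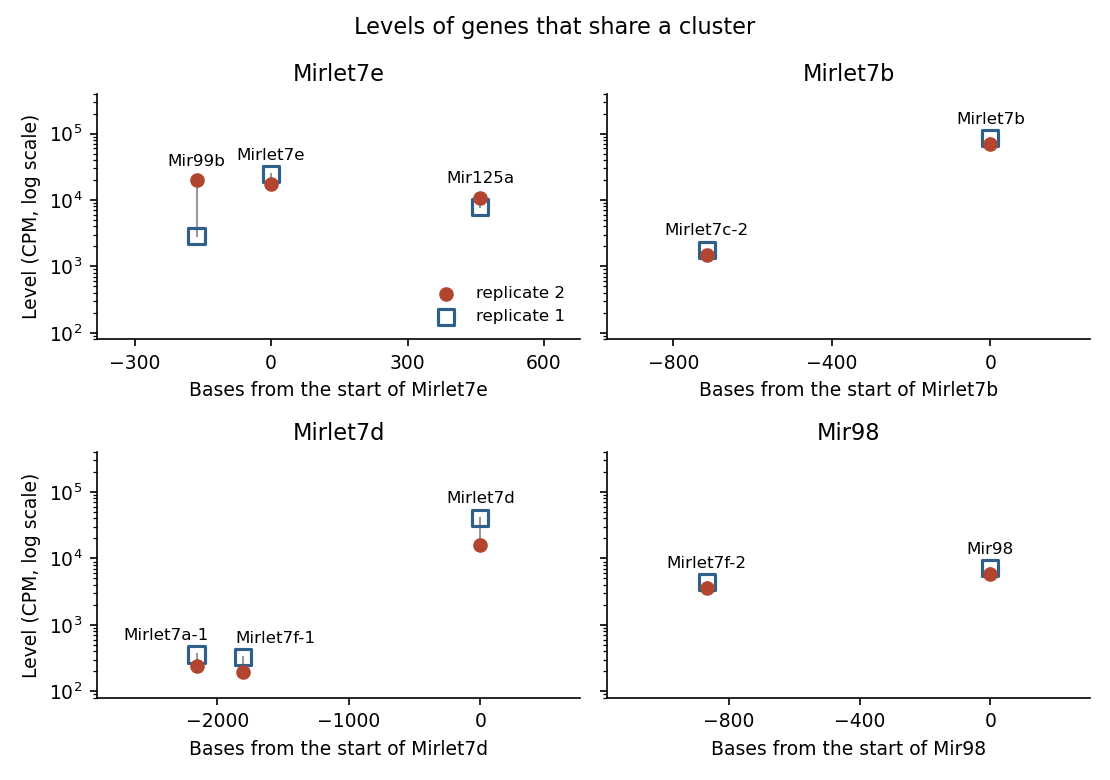
Level in CPM (log scale) of the genes in each of 4 clusters against the distance in bases from the start of the named member, read along its strand, with replicate 2 as filled circles and replicate 1 as open squares. Mir99b has the widest gap, at 19707 CPM in replicate 2 and 2844 CPM in replicate 1, whereas the pairs of marks of Mir98 and Mirlet7f-2 are shifted alike.

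Mir99b, Mir125a and their relatives beside other let-7 genes were set against the members as 1 list, chosen with earlier results of these data known. Shown are the mature sequences of the 3 that share a seed (bases 2 to 8, in capitals), which differs from that of let-7.
miR-99b-5p: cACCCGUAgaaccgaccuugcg
miR-99a-5p: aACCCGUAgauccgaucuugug
miR-100-5p: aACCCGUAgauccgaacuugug
Of the 6 genes of the miR-99 and miR-125 list, 4 were higher in replicate 2, 1 was lower and 1 did not pass; the list's median log2 ratio was 0.54. Over all tested genes 32.5% were higher and 23.2% lower. Mir99a stood at 331489 counts in replicate 2 against 108137 in replicate 1, a log2 ratio of 1.34, and Mir100 at 45415 against 23900, a log2 ratio of 0.65. Mir125b-2 was lower (-0.24), and Mir125b-1, at 853 CPM in replicate 2 and 863 CPM in replicate 1, had an adjusted p of 0.391 in the exact binomial test. The list took 10.3% of the counts in replicate 2 and 4.22% in replicate 1, where the 6 let-7 genes took 25.8% and 34.6% of the same totals.

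Of the other 9 let-7 and let-7-like genes, 7 could be tested, and 6 of these were lower in replicate 2, none was higher and 1 did not pass, where 23.2% of all tested genes were lower and 32.5% higher. The 6 were the duplicated genes, namely both copies of Mirlet7a, of Mirlet7c and of Mirlet7f, with log2 ratios between -0.83 and -0.27. Each shares 20 or more bases with another annotated microRNA gene, so their counts are uncertain as levels. With 1 mismatch let-7b-5p fits both copies of Mirlet7c, and let-7e-5p both copies of Mirlet7a. Whether reads of members entered these counts was not tested. Together the 9 genes took 0.606% of the counts in replicate 2 and 0.760% in replicate 1. The gene that did not pass was Mir7j, the let-7j gene, with 112 counts in replicate 2 and 78 in replicate 1 (adjusted p = 0.384, exact binomial test). Its mature sequence, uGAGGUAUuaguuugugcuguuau, differs from the let-7 seed. Mir7k, the let-7k gene, had 6 and 1 counts. Mir1961, which carries the let-7 seed in a shorter RNA, had 0 counts in both libraries, which allows up to 0.568 CPM in replicate 2 and 0.681 CPM in replicate 1.

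Strand mattered for 1 member. An annotated microRNA gene on the minus strand, Gm25927 (ENSMUSG00000092799.1, chr17:17830343-17830459), covers the whole hairpin of Mirlet7e. In the deposited column that ignores strand, Mirlet7e had 0 counts in both libraries, where reads that lie in both genes are set aside as ambiguous. In the column for the gene's own strand it had 92811 and 107658 counts, while Gm25927 had 0 on its own strand in both. The reads of Mirlet7e came to 18.5% of the reads set aside in replicate 2 and 36.4% in replicate 1. For the other 5 members the columns differed by 13 counts or fewer.

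Among the 242 genes outside the let-7 family with 100 or more counts in both libraries, the gene nearest to each member was found by Euclidean distance in log2(CPM + 1) over the 2 libraries. Mirlet7e was nearest to Mir132 (distance 0.0454), an activity-regulated neuronal microRNA at 17251 CPM in replicate 2 and 23835 CPM in replicate 1. Mir98 was nearest to Mir379 (0.0666), and Mirlet7b to Mir139 (0.199), which stood at 73496 and 95319 CPM. Mirlet7g was also nearest to Mir139 (0.447) and Mirlet7i to Mir127 (0.443). Mirlet7d had no close neighbour, Mir744 being the nearest at 0.761, with 27010 CPM in replicate 2 and 39498 CPM in replicate 1.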

How the data were processed

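Raw counts per microRNA gene were deposited by the authors without normalization. They were made by mapping reads to mm10 and counting against GENCODE M21, per the file headers of the notes deposited with them. An aligner or counter name is not given in the sources used here. Column layout was read from the values. Own-strand counts were used. Lines without a gene name made up 65.4% of all reads in replicate 2, against 64.7% in replicate 1, and stayed out of library sizes. Within these lines, unmapped reads were 13.7% of all reads in replicate 2 and 20.2% in replicate 1. All 2202 identifiers matched GENCODE M21, and all 6 members matched the RefSeq sequence table.

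CPM is the count over the library's own-strand total, times 1000000. The test between libraries was the exact conditional binomial test, two-sided (scipy 1.17.1), with TMM-adjusted sizes (edgeR 4.0.16, R 4.3.3; factors 1.006 for replicate 2 and 0.994 for replicate 1), over genes whose counts summed to 10 or more, with Benjamini-Hochberg adjustment at 0.05. With 1 group, the quasi-likelihood test of edgeR has no contrast to fit. The beta-binomial form adds a coefficient of variation to both libraries. DESeq2 1.42.0 gave other size factors. The other genes named are the let-7 genes and seed carriers, the miR-99 and miR-125 genes beside let-7, the marker lists and, for each member, the nearest gene in level. Members and lists were chosen with earlier results of these data known. Alternatives were the strand, scaling, count minimum, pseudocount, added spread, each library alone and the length or mismatches of shared sequence. Figures were drawn with matplotlib 3.10.9, in Python 3.11.15 with pandas 2.3.3 and numpy 2.4.6.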

Additional observations from a re-analysis of the deposited data

Results flagged for a closer look

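Mirlet7b had 13 counts on the opposite strand in replicate 2 and 4 in replicate 1, in a column that the comparisons do not use, which is above the 3 counts that a count of 0 allows. No microRNA gene is annotated opposite Mirlet7b.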

How the results depend on the processing

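The number of genes past the threshold, 281 of 504, fell to 152 with a coefficient of variation of 0.1 and to 14 with 0.3. With TMM scaling estimated anew over the 313 genes with 100 or more counts, the split was 122 higher and 130 lower. With the scaling over the 504 genes it was 164 and 117 among these 504. With 0.1, Mirlet7g (-0.28), Mirlet7b (-0.32), Mirlet7i (-0.45), Mirlet7e (-0.49) and Mir98 (-0.30) no longer passed, with adjusted p between 0.0501 and 0.318. With 0.3, Mirlet7d (-1.38) did not pass either. The direction of all 6 log2 ratios held under total counts, DESeq2 size factors, totals without let-7, minimums of 1 and 100 counts and 10 CPM added, and under either-strand counts for the 5 genes that have a value there. Set against all reads, the 6 genes took 10.6%. With stretches of 18 bases 3 of the 6 share sequence with another gene, and with 1 mismatch in a mature sequence 3 do and with 2 mismatches all 6 do; with 20 or 22 exact bases 0 do. No paired analysis was possible because there is 1 group, and leaving out a library leaves no ratio to test. Depth does not limit the members, the lowest of which had 30805 and 31323 counts in replicates 2 and 1, but 2 libraries limit every statement on spread.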
